A study of Arabidopsis thaliana with 2 samples.

Results

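The 631 nuclear tRNA loci of Arabidopsis thaliana were examined in pollen of the ecotypes Col-0 and Ler-0. They are all the loci typed as pre_trna among the 33322 nuclear loci listed in the deposited tables of pollen expression, a rule that reads the type of locus and no measured value. The study concerns small RNAs that come from transposons after cutting by microRNA, and how they act when genome dosage changes. Pollen was shaken off open flowers, passed through a mesh and frozen, from plants grown in soil in long days. Total RNA was depleted of rRNA and made into libraries with the ScriptSeq-v2 kit. Each ecotype has 1 library, for which the labels name no other genotype and no treatment, so differences below rest on single libraries and carry no p-value. The reference genome was built from Col-0, whereas Ler-0 is a second laboratory ecotype. Neither the number of plants behind a library nor their age at collection is given in the sources used here.

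Transfer RNAs carry amino acids to the ribosome and read the codon with their anticodon. They are made by RNA polymerase III from promoters inside the gene, an A box and a B box, and transcription ends at a run of T. The precursor is trimmed at both ends, spliced where it has an intron, given a CCA tail and exported from the nucleus. A pollen grain consists of a vegetative cell, from which the tube grows, and a pair of sperm cells inside it. The files give a sum of reads per locus. They do not tell a precursor from a mature tRNA, a fragment or a longer transcript that runs across the locus.

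Listed loci held 76488187 reads for Col-0 and 88952509 for Ler-0, recovered from the deposited FPKM (reads per kilobase of span, scaled to library size). All 6 marker genes of the vegetative cell were abundant, at 32.3 to 6057 FPKM in Col-0 and 86.3 to 3073 in Ler-0, and their sum was 16136 and 8371, although PRK1 went the other way, at 32.3 and 86.3. The 4 sperm markers summed to 73.4 FPKM (Col-0) and 150.3 (Ler-0), a sum carried by MGH3 at 58.0 and 138 while GEX2 stood at 11.6 and 5.84. The 4 green tissue markers summed to 36.6 and 40.2, mostly CAB2 at 28.9 and 33.1, while RBCS1A stood at 4.07 and 1.66. The 3 floral organ markers summed to 2.15 and 3.50 and the 3 tapetum markers to 0.723 and 0.481. No marker was at 0, and the part of these marker differences in the results below was not tested. In such bulk samples, fewer cells of a type and less RNA per cell cannot be told apart.

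The sequences that carry most of the difference between the libraries are shown first. They are the 72-base spans of the loci on the coding strand, 5′ to 3′, read from the RefSeq TAIR10.1 nuclear genome at the coordinates of the deposited tables. Glu (TTC), the glutamate tRNA with anticodon TTC (read as DNA), has 10 loci of nuclear type in 4 sequence forms. Capitals mark the anticodon at positions 34 to 36 and each base that differs from form 1, counted from 1 at the 5′ end.
Glu (TTC) form 1, 6 loci, shown for AT1G09110 at chr1:2939417-2939488, plus strand: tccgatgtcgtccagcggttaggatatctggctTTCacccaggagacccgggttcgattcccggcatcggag
Glu (TTC) form 2, 2 loci, shown for AT1G75970 at chr1:28519985-28520056, minus strand: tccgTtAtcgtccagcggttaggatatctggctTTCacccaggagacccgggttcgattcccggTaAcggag
Glu (TTC) form 3, AT3G05525 at chr3:1601338-1601409, minus strand: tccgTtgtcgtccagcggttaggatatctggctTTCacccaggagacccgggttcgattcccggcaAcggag
Glu (TTC) form 4, AT3G50665 at chr3:18826040-18826111, plus strand: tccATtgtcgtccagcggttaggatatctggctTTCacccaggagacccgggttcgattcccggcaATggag
Relative to form 1, form 2 carries A5T, G7A, C65T and T67A, form 3 carries A5T and T67A, and form 4 carries G4A, A5T, T67A and C68T. All of these positions lie near the ends of the span, and the middle of the 4 forms is the same.

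The initiator methionine tRNA, which serves to start translation, has 10 loci of nuclear type, also in 4 forms. Capitals mark the anticodon at positions 33 to 35 and the differences from form 1.
Initiator Met form 1, 6 loci, shown for AT1G69000 at chr1:25941164-25941235, plus strand: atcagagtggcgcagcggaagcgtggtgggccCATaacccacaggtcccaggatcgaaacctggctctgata
Initiator Met form 2, AT3G55735 and AT1G42120, shown for AT1G42120 at chr1:15730615-15730686, minus strand: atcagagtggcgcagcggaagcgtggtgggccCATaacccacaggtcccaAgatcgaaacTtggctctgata
Initiator Met form 3, AT3G55795 at chr3:20709173-20709244, plus strand: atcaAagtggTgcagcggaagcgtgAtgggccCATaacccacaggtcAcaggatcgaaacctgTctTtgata
Initiator Met form 4, AT5G41675 at chr5:16667436-16667507, minus strand: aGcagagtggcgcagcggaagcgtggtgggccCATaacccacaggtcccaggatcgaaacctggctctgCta
Form 2 differs from form 1 by G51A and C61T, form 4 by T2G and A70C, and form 3 at 6 positions. The glycine tRNA with anticodon TCC has 12 loci with the same sequence, with its anticodon in capitals.
Gly (TCC), 12 loci, shown for AT1G08240 at chr1:2588525-2588596, plus strand: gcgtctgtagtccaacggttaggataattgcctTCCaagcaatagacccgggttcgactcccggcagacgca

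A few further sequences serve as contrasts within the results. The copy of Glu (TTC) that is identical to a mitochondrial sequence had no read in either library. The pseudogene AT4G01455 shares a 43-base run with Glu (TTC) form 1, in capitals. AT3G01705, a proline tRNA locus with its anticodon AGG in capitals, held the most tRNA reads in Col-0.
Glu (TTC), mitochondrial type, AT2G07752 at chr2:3303244-3303315, minus strand: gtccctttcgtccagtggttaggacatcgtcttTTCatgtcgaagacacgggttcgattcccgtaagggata
AT4G01455 at chr4:611866-611932, minus strand: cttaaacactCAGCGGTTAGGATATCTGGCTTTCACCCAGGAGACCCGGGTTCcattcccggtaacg
Pro (AGG), AT3G01705 at chr3:259634-259705, plus strand: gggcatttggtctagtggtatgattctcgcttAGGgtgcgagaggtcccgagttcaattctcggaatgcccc

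Reads at tRNA loci were rare in Col-0 and far more common in Ler-0. The 631 loci together held 2087 reads in Col-0, or 27.3 RPM (reads per 1000000 reads on listed loci), and 58376 in Ler-0, or 656 RPM. The ratio of the shares, Ler-0 over Col-0, was 24.1 (exact 95% binomial interval 23.0 to 25.1, counting error only). The share of protein-coding loci had a ratio of 0.990 and that of microRNA loci 1.08. Other structural RNAs also had larger shares in Ler-0. Small nuclear RNA loci, parts of the spliceosome, had a ratio of 10.3, small nucleolar RNA loci, which guide rRNA modification, 7.36, and the 4 listed rRNA loci 3.09. The small nucleolar sum and its typical locus differ in direction, since the median centred log2 ratio of its 39 expressed loci was -0.71. Ecotype, plants and library preparation vary together here and cannot be told apart, and the part of RNA recovery or rRNA depletion in the tRNA difference was not tested.

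At least 1 read lay at 181 loci in Col-0 and at 350 in Ler-0, and at 135 of these in both. Another 215 loci had reads in Ler-0 alone and 46 in Col-0 alone, and 235 (37.2%) had none in either library. For a locus of the median span of 72 bases, a count of 0 allows up to 3 reads, which is 0.552 FPKM (Col-0) and 0.475 (Ler-0). Col-0 had 4 loci with at least 100 reads, and Ler-0 had 31.

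Of the 631 loci, 168 reached FPKM 1 in either library, which takes 5.43 reads in Col-0 or 6.32 in Ler-0 at the median span, and these are called expressed. The 4-fold limit was set at 2 on the centred log2 scale of FPKM + 1, in either direction. The centre was the median ratio of the 6656 loci that reached FPKM 1 in each library. By this rule 59 of the 168 (35.1%) were higher in Ler-0, beside 3.44% of all 9562 expressed loci, and 2 (1.19%) were higher in Col-0, beside 2.22%. The median centred log2 ratio was 1.42 over the 168 loci and 0.06 over all expressed loci. A locus with few reads could pass the filter only through the library where it was high. With the 86 loci at 0 in Col-0 and the 3 at 0 in Ler-0 set to 3 reads, the median was 0.92 and 43 loci were higher in Ler-0. No share over all expressed loci was computed with zeros set this way.

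**Figure D1:**
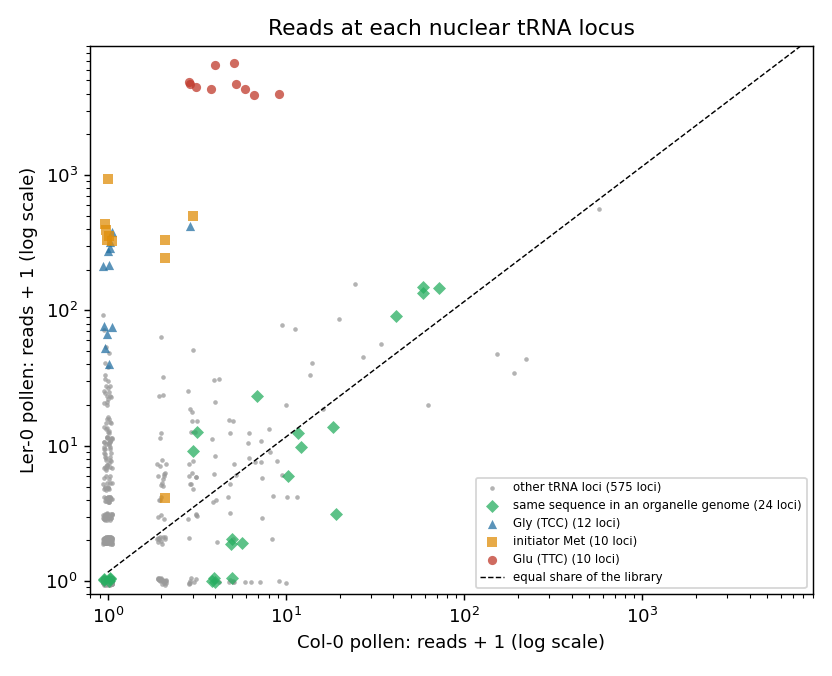
Reads + 1 at each of the 631 nuclear tRNA loci in Col-0 pollen (x, log scale) and Ler-0 pollen (y, log scale), 1 library each, with a small random shift so that equal points show. The 10 Glu (TTC) loci sit at 2 to 8 reads in Col-0 and 3815 to 6560 in Ler-0, far above the dashed line of equal shares, whereas AT3G01705, at the right, lies close to that line.

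Glu (TTC) accounted for most of the tRNA reads in Ler-0 and few in Col-0. Its 11 loci held 39 reads (Col-0) and 48032 (Ler-0), or 0.510 and 540.0 RPM, a ratio of 1059 (775 to 1489). That was 1.87% of the tRNA reads of Col-0 and 82.3% of those of Ler-0. The difference was present at every copy of nuclear type.

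AT3G50505 had 3 reads (Col-0) and 6560 (Ler-0), and AT1G20170 had 4 and 6471. AT5G45715 had 4 and 4727 reads, AT3G05525 2 and 4594, and AT5G66755 5 and 4558. AT5G27715 had 3 and 4506 reads, AT4G37175 2 and 4481, and AT1G75970 2 and 4362. The lowest in Ler-0 were AT1G09110, with 8 reads (Col-0) and 3958 (Ler-0), and AT3G50665, with 6 and 3815. Each ecotype has a single library, so the counts at these loci carry no measure of spread within an ecotype. Because 6 of the copies have the same sequence, their counts may not be separate observations. The copies of nuclear type ranged from 3815 to 6560 reads in Ler-0. Their centred log2 ratios ran from 7.93 to 9.33, with 4506 reads at the median of the 11 loci in Ler-0. The mitochondrial-type copy AT2G07752 stayed at 0 in both.

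The 4 sequence forms of Glu (TTC) all had the difference. Form 1, at 6 loci, summed to 26 reads (Col-0) and 28701 (Ler-0), and form 2, at 2 loci, to 5 and 10922. Forms 3 and 4, each at a single locus, are the loci AT3G05525 and AT3G50665 given above. The forms share a run of at least 57 bases with form 1, and how the authors placed reads with several matches is not given in the sources used here. Reads may therefore be split among copies in ways the files do not show, and the sum is the firmer value. The pseudogene AT4G01455, named because of its values, had 0 reads (Col-0) and 22 (Ler-0).

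The initiator methionine tRNA was the next most abundant in Ler-0. Its 11 loci held 9 reads (Col-0) and 3821 (Ler-0), a ratio of 365 (192 to 799). Of the 9 reads in Col-0, 4 lay at AT2G07758, a copy identical to a mitochondrial sequence, which had 1 read in Ler-0. Over the 10 loci of nuclear type the sums were 5 and 3820 reads, a ratio of 657 (281 to 2024).

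AT3G55735 held the most initiator Met reads, with 0 (Col-0) and 936 (Ler-0), for which the exact 95% interval of the ratio starts at 218. Its sequence twin AT1G42120 had 0 and 429 reads. The 6 loci of form 1 had 0 to 2 reads in Col-0 and 242 to 490 in Ler-0, with AT5G57885 the highest at 2 and 490. AT5G41675, the only locus of form 4, had 0 and 312 reads. AT3G55795 stood apart from the other 9, with 1 read (Col-0) and 3 (Ler-0), a ratio of 2.58 whose interval of 0.207 to 135 covers equality. It is the locus that differs from form 1 at 6 positions.

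Gly (TCC) had almost no reads in Col-0. Its 12 identical loci summed to 2 reads there, both at AT5G59395, and to 2439 in Ler-0, which gives a ratio of 1049 (290 to 8664). The copies ranged from 41 to 431 reads in Ler-0, with AT5G59395 the highest. The glycine tRNA Gly (GCC) had 79 reads (Col-0) and 64 (Ler-0) over 23 loci, a ratio of 0.697 (0.493 to 0.981). That direction rests on AT1G71700, with 61 and 18 reads, without which the other 22 loci had 18 and 46, a ratio of 2.20 (1.25 to 4.03).

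**Figure D2:**
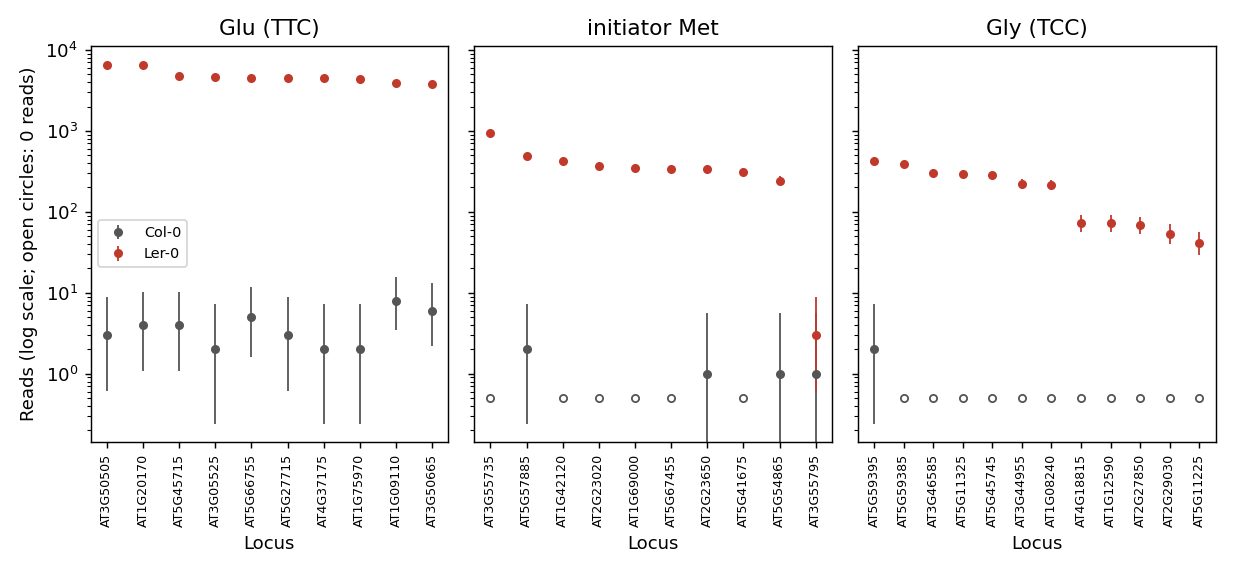
Reads at each nuclear-type locus of Glu (TTC), initiator Met and Gly (TCC) in Col-0 (grey) and Ler-0 (red), on a log scale, with exact 95% Poisson intervals; open circles are 0 reads, drawn at the foot. Col-0 never passes 8 reads at a locus, and AT3G55795 is the only locus at which the intervals overlap.

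Taken as 1 group, the 34 loci of these 3 families make up 5.39% of the tRNA loci. They held 50 reads in Col-0, which is 2.40% of its tRNA reads, and 54292 in Ler-0, which is 93.0%. The ratio of the shares was 934 (708 to 1258). The other 597 loci held 2037 and 4084 reads, a ratio of 1.72 (1.63 to 1.82). Of their 137 expressed members, 28 (20.4%) passed 4-fold toward Ler-0, beside 3.44% of all expressed loci. Of the 137, 69 had 0 reads in Col-0 and entered through Ler-0 alone. With zeros set to 3 reads, 12 passed and the median centred log2 ratio went from 1.19 to 0.75. Most of the difference in tRNA reads lay in the 3 families, with a smaller one in the rest. The 3 families are the anticodon groups with most reads in Ler-0, chosen after the values were seen. That choice by itself raises their share in Ler-0 and lowers the ratio of the rest.

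Glu (CTC), the other glutamate isoacceptor, had 5 reads (Col-0) and 320 (Ler-0) over 13 loci, a ratio of 55.0 (23.3 to 171). All 13 loci had at least 3 reads in Ler-0, but 10 of its 12 expressed loci had 0 in Col-0 and entered through Ler-0 alone. By the 4-fold limit 8 of the 12 were higher in Ler-0, beside 3.44% of all expressed loci. With zeros set to 3 reads 3 were higher, for which no share over all expressed loci was computed. AT1G75570, its highest, had 0 and 50 reads. Both glutamate isoacceptors were thus scarce in Col-0 and present at every locus of nuclear type in Ler-0.

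The 3 valine isoacceptors also had more reads in Ler-0. Val (TAC) had 25 and 447 reads over 7 loci, a ratio of 15.4 (10.3 to 24.0), and 22 of the 25 in Col-0 lay at AT1G01870, which had 151 in Ler-0. Val (CAC) had 4 and 121 reads over 8 loci, and Val (AAC) 2 and 82 over 15. Among the charged residues, Asp (GTC) had 38 and 248 reads over 26 loci, a ratio of 5.61 (3.98 to 8.12), and Lys (CTT) 18 and 146 over 17 loci, a ratio of 6.97 (4.26 to 12.1). Ser (AGA) had 21 and 239 reads over 37 loci, a ratio of 9.79 (6.26 to 16.1), whose interval overlaps that of Val (TAC).

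The other amino acids were led by loci with few reads. Asp was led by AT1G18430 with 18 reads (Col-0) and 85 (Ler-0), Arg by AT1G49690 with 10 and 73, and Lys by AT4G12115 with 13 and 33. Thr was led by AT3G18815 with 0 and 23, Gln by AT3G48745 with 0 and 12, and Leu by AT1G18820 with 4 and 15. Ala was led by AT1G64420 with 15 and 18, Cys by AT1G53410 with 9 and 18, and His by AT1G07760 with 4 and 11. The intervals of the ratio cover 1 for AT1G64420 (0.491 to 2.20), AT1G53410 (0.734 to 4.35) and AT1G07760 (0.701 to 10.2), and lie above 1 for the other 6. AT1G53410 lies inside AT1G53400, which had 9327 and 16105 reads. Phe was led by AT5G25625, with 9 and 0 reads. The leading loci of Trp and Ile, AT2G07748 with 6 and 21 and AT2G07794 with 10 and 12, are of mitochondrial type.

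Several amino acids had little signal in either library. The 16 loci of phenylalanine summed to 14 and 8 reads, the 10 of histidine to 25 and 23, the 12 of elongator methionine to 12 and 18, and the 14 of tryptophan to 7 and 25. The intervals of the first 3 ratios cover 1, so no difference was detectable at this depth. Over the 21 amino acid groups (initiator Met set apart), the interval lay above 1 in 13, below 1 in 3 (proline, tyrosine and asparagine) and across 1 in the rest.

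**Figure D3:**
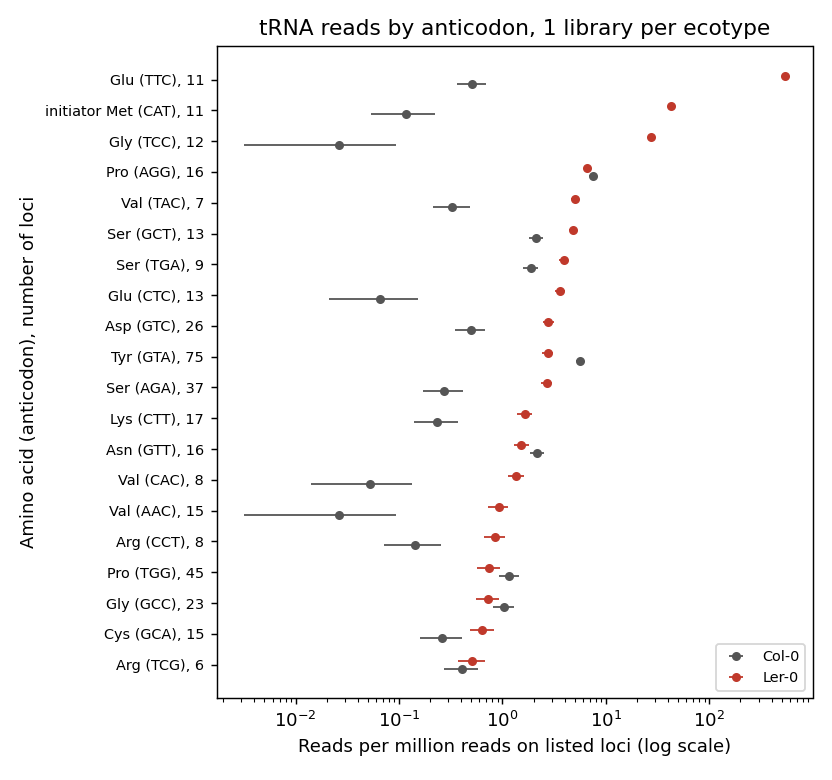
RPM (log scale, as defined above) for the 20 anticodon groups with most reads in Ler-0, with the number of loci after each name; bars are exact 95% Poisson intervals, covering counting error only. Glu (TTC) reaches 540.0 RPM in Ler-0 against 0.510 in Col-0, while Pro (AGG), at 6.61 and 7.45, has similar shares in both.

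The anticodon with most loci was not the one with most reads in either library. Tyr (GTA) has the most loci, 75, and held 429 and 244 reads, whereas Glu (TTC) has 11. Over 49 anticodon groups Spearman's rho between the number of loci and reads was 0.51 (Col-0) and 0.50 (Ler-0), as a description of groups that share their library. Between the libraries rho was 0.60 over the 49 groups and 0.33 over the 631 loci, where ties at 0 are many.

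The tRNA reads of Col-0 came mainly from a few loci outside the 3 families. Its 10 leading loci held 69.8% of its tRNA reads, and AT3G01705 alone 27.02%. AT3G01705, a Pro (AGG) locus, had 564 reads (Col-0) and 567 (Ler-0), a ratio of 0.864 (0.768 to 0.973). It lies 2 bases from AGP11 (AT3G01700), a pollen arabinogalactan protein gene at 1965 FPKM (Col-0) and 1270 (Ler-0). It also overlaps AT3G01710, on the opposite strand, which had 322 reads (Col-0) and 550 (Ler-0). The other 15 Pro (AGG) loci held 6 and 21 reads, a ratio of 3.01 (1.17 to 9.11). The part of transcripts from AGP11 or AT3G01710 in the reads at AT3G01705 was not tested.

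Besides AT3G01705, the other loci with at least 100 reads in Col-0 were also lower in Ler-0. AT4G22265, a tyrosine tRNA locus whose listed span covers only 36 bases of the gene, had 215 reads (Col-0) and 41 (Ler-0), a centred log2 ratio of -2.58. It lies inside AT4G22270, which stood at 10.7 and 2.81 FPKM. AT1G52860, also tyrosine with a span of 37 bases, had 183 and 32 reads, a centred log2 ratio of -2.68. These are the 2 loci counted as 4-fold higher in Col-0. Not all leading loci of Col-0 went this way. AT2G42020, a Ser (GCT) locus, had 35 and 53 reads, a ratio of 1.30 whose interval of 0.834 to 2.06 covers equality. The leading serine loci of mitochondrial type, described below, had more reads in Ler-0.

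AT1G69300, an asparagine locus, had 159 and 47 reads, and AT1G71700, a Gly (GCC) locus inside the choline kinase gene CK1 (264.9 and 165 FPKM), had 61 and 18. AT3G01705, AT4G22265, AT1G52860, AT1G69300 and AT1G71700 were then left out, 5 loci chosen after their values were seen. The remainder of Pro (AGG), tyrosine, asparagine and Gly (GCC) was higher in Ler-0. Pro (TGG), the proline anticodon with most loci, was lower in Ler-0. It had 89 reads (Col-0) and 66 (Ler-0) over 45 loci, a ratio of 0.638 (0.457 to 0.887). The other 73 tyrosine loci held 31 and 171 reads, a ratio of 4.74 (3.22 to 7.20). The other 15 asparagine loci held 6 and 89, a ratio of 12.8 (5.63 to 35.7), and the other Gly (GCC) loci are given above. Over all 592 remaining loci outside the 3 families the sums were 855 and 3379, a ratio of 3.40 (3.15 to 3.67). Leaving out loci for being high in Col-0 raises such a ratio by construction.

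A stretch of chromosome 2 carries a copy of mitochondrial DNA, and 23 tRNA loci there have the same sequence as a place in the mitochondrial genome. They held 322 reads (Col-0) and 604 (Ler-0), a ratio of 1.61 (1.41 to 1.85), and 0 of their 11 expressed members passed 4-fold. That count is near the background of 3.44% and 2.22%, so it sets nothing apart. The serine loci lead this group. AT2G07759 and AT2G07754, both Ser (GCT) with listed spans of 38 bases, had 74 and 148 reads and 43 and 88 reads in Col-0 and Ler-0. AT2G07793 and AT2G07766, both Ser (TGA), had 61 and 147 and 61 and 140. Each Ser (TGA) locus lies 45 bases from another listed locus, at 76.9 and 139 FPKM for AT2G07793 and at 73.3 and 99.2 FPKM for AT2G07766. Whether such reads come from the nuclear copy or from mitochondria cannot be told apart. The only locus that matches the chloroplast genome, the pseudogene AT3G20365, had 18 reads (Col-0) and 2 (Ler-0).

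Tandem arrays, runs of at least 3 tRNA loci with gaps of up to 2 kb, hold 136 of the loci in 9 arrays. The largest, on chromosome 1 from 21268787 to 21308423, has 54 tyrosine and 27 serine loci. No read lay at any of its 81 loci in Col-0, while 52 had reads in Ler-0, 269 in all, for which the exact 95% interval of the ratio starts at 62.3. Of the 269 reads 153 lay at tyrosine and 116 at serine loci, and no locus had more than 21. The 5 arrays of proline loci differed among themselves. On chromosome 1, the array from 10089437 to 10094244 had 29 reads (Col-0) and 12 (Ler-0), that from 10106090 to 10108781 had 38 and 15, and that from 17156607 to 17162093 had 0 in both. The array from 10096951 to 10102064 had 5 and 12 reads, and that on chromosome 2 from 14350386 to 14356592 had 1 and 13. The 4 cysteine loci arrayed on chromosome 5 had 0 in both, and the remaining arrays lie in the chromosome 2 stretch described above.

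The expressed loci next to the 3 families had lower centred log2 ratios than the tRNA loci themselves, AT3G55795 apart. A neighbour was the nearest listed locus on each side, leaving out tRNA loci and loci that overlap the tRNA. Genes left out for overlap include AT5G45720 and AT3G05520, described below, with centred log2 ratios of 3.42 and 3.29, tRNA reads included. The 10 nuclear Glu (TTC) loci had 20 neighbours, with centred log2 ratios from -1.09 to 0.74. Their median was 0.00 (0.00481), and -0.15 over the 10 of them that were expressed. Over the 32 loci of nuclear type in the 3 families, the 64 neighbours ranged from -3.21 to 1.52. Of these, 39 were below FPKM 1 in both libraries, where the FPKM + 1 scale cannot reach 4-fold. Of the 25 expressed, 0 passed 4-fold toward Ler-0, beside the background of 3.44%. Toward Col-0 1 passed, beside 2.22%, namely AT1G12600 at 23.9 FPKM (Col-0) and 1.82 (Ler-0). With so few expressed loci both counts are near the background and set nothing apart. By FPKM without the added 1, AT5G54860 was past 4-fold, at 1.67 (Col-0) and 6.99 (Ler-0). AT3G50505 lies 7 bases from AT3G50510, which stood at 0.0355 FPKM (Col-0) and 0.137 (Ler-0).

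**Figure D4:**
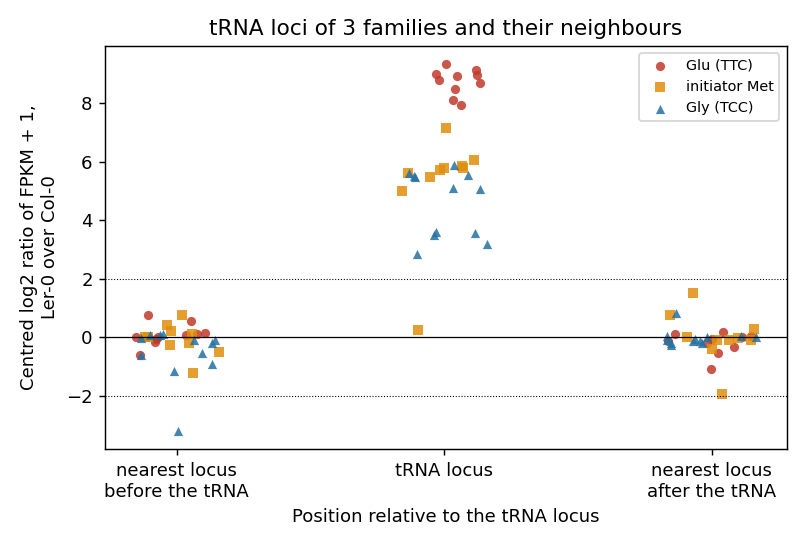
Centred log2 ratio (Ler-0 over Col-0, from FPKM + 1) for the 32 nuclear-type loci of Glu (TTC), initiator Met and Gly (TCC) and their neighbours. Neighbours are the nearest listed locus on each side, leaving out tRNA loci and loci that overlap the tRNA. Dotted lines mark 4-fold. The tRNA loci lie above 2 except AT3G55795, and the neighbours range from -3.21 to 1.52.

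Of the 631 loci, 62 overlap another listed locus, 22 on the same strand and 40 on the opposite one, and 48 lie wholly inside it. The use of strand in counting is not given in the sources used here, so reads of such a pair cannot be told apart. In Ler-0 the opposite-strand pair AT5G67455 and AT5G67460 had 343 and 349 reads, as counting at both loci without regard to strand would give. The subtractions below assume that a read at the tRNA locus was also counted for the locus around it, whichever the strand. In none of the 48 did the tRNA locus have more reads than the locus around it, which holds by construction if reads are counted at both. AT5G45720, an AAA-type ATPase gene, stood at 0.219 FPKM (Col-0) and 12.6 (Ler-0) with the Glu (TTC) locus AT5G45715 inside it. It held 4755 reads in Ler-0, and 4727 (99.4%) equals the count at the tRNA locus. Less the tRNA reads, the gene had 67 and 28, a ratio of 0.359 (0.223 to 0.566), the opposite direction.

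CPA (AT3G05520), a subunit of the actin capping protein, lies on the strand opposite to AT3G05525. It had 242 reads (Col-0) and 5247 (Ler-0), of which 2 and 4594 equal the count at the tRNA locus. The rest, 240 and 653, had a ratio of 2.34 (2.01 to 2.72), against 18.6 for the whole gene. MPS1 (AT5G57880), known for its role in meiotic spindle organisation, contains the initiator locus AT5G57885. Its reads went from 33 to 531, and from 31 to 41 without those at the tRNA, a ratio of 1.14 (0.696 to 1.88). AT5G67460 went from 5 to 349 reads, and from 5 to 6 without the tRNA. The centred log2 ratios of AT5G45720 and CPA, 3.42 and 3.29, passed 4-fold with the tRNA reads included.

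Sequence features that direct RNA polymerase III were looked up as letters, which is a description and no evidence of use. The B box was searched as GGTTCGA, any pair of bases and then CC, in the span on the coding strand and was found at 307 of the 631 loci (48.7%). All 10 nuclear Glu (TTC) and all 12 Gly (TCC) loci hold it, and 0 of 10 initiator Met loci do. A search for the A box, by a string with some bases left free, went another way. It missed each of the nuclear Glu (TTC) loci and matched the initiator Met loci AT3G55735, AT5G57885 and AT1G42120 and the Gly (TCC) locus AT5G59395. Both searches ask for set letters, so a locus with no match may still hold a variant of the box. A run of TTTT in the 25 bases after the end was found at 504 loci (79.9%), including all 32 nuclear-type loci of the 3 families. CAA in the 10 bases before the start was found at 456 (72.3%), including all 10 Glu (TTC), all 10 initiator Met and 9 of 12 Gly (TCC) loci. The 9 Gly copies with CAA had 41 to 431 reads in Ler-0 and the 3 without it 54 to 284, so the ranges overlap.

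None of the genes listed here for making and using tRNAs reached the ratios of the 3 families, though several low genes differed by as much as other tRNA groups. On the FPKM + 1 scale 0 passed 4-fold in any list, which with so few expressed genes is near the background of 3.44% and 2.22%. Among 17 genes of RNA polymerase III and its factors, 5 were expressed and 0 passed 4-fold, and their median centred log2 ratio was 0.00 (0.00176). NRPC1, the largest subunit of the polymerase, stood at 0.125 FPKM (Col-0) and 0.211 (Ler-0), and NRPC2, the second, at 0.126 and 0.101. MAF1 (AT5G13240), a repressor of RNA polymerase III in yeast and animals, was lower in Ler-0, at 0.315 against 2.18 FPKM, a ratio of 0.145 (0.111 to 0.186) and a centred log2 ratio of -1.33. AT4G17010, annotated as transcription factor IIIB, was at 0.673 and 2.81 FPKM, a ratio of 4.17 (3.39 to 5.16) and a centred log2 ratio of 1.12. AT3G49410, annotated as a TFIIIC subunit, was at 2.60 and 0.746 FPKM, a ratio of 0.287 (0.251 to 0.328). AT1G80745, a TFIIIC relative, stood at 1.73 and 2.62 FPKM. TFIIIA (AT1G72050), which serves the 5S rRNA genes, stood at 0.0588 and 0.0781.

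Of 15 genes for tRNA processing and export, 2 were expressed and 0 passed 4-fold. LA1, which binds the U-rich end of new transcripts, stood at 1.15 FPKM (Col-0) and 1.71 (Ler-0), and RLG1, the ligase that joins the exons of spliced tRNAs, at 0.644 and 1.78, a ratio of 2.76 (2.48 to 3.07). The endonuclease genes SEN1 and SEN2, which cut out introns, stood at 0.384 and 0.0802 FPKM and at 0.309 and 0.133. The tRNA methyltransferase gene TRDMT1 stood at 0.0602 and 0.367 FPKM, a ratio of 6.10 (3.23 to 12.7) on 11 and 78 reads. The RNase P genes PRORP1, PRORP2 and PRORP3, which trim the leader, lay between 0.0812 and 0.251 FPKM in both libraries.

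The RNase T2 enzymes, which cut tRNAs into fragments in several organisms, were led by RNS2, at 35.3 FPKM (Col-0) and 27.7 (Ler-0). RNS3 stood at 1.30 and 0.134, a ratio of 0.103 (0.0575 to 0.174), and RNS1 at 0.110 and 0.0775. None of the 3 passed 4-fold on the FPKM + 1 scale, which compresses the ratios of such low genes.

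Of 63 loci whose annotated product names an aminoacyl-tRNA synthetase or ligase, 21 were expressed, 0 passed 4-fold, and the median centred log2 ratio was 0.19. The list holds 4 products named after a domain of unknown function, among them the gene of highest level, AT5G12960, at 2003 FPKM (Col-0) and 2127 (Ler-0). Among the 36 with synthetase in the product name and no mention of a related or domain protein, 10 were expressed and the median was 0.35. A few synthetases for the amino acids of the 3 families were chosen after their values were seen. The glutamyl or glutaminyl synthetase AT5G26710 stood at 63.5 FPKM (Col-0) and 68.3 (Ler-0), a ratio of 1.08 (1.05 to 1.101). The methionyl synthetases OVA1 and AT4G13780 stood at 12.1 and 16.1 and at 0.554 and 1.32 FPKM, and the glycyl synthetase AT1G29880 at 0.492 and 0.758. The glycine-tRNA ligase EDD1 stood at 0.169 and 0.148 FPKM, a ratio of 0.876 whose interval of 0.663 to 1.16 covers 1. The glutamate synthetase ERS stood at 0.281 and 0.375 FPKM.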

How the data were processed

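The tables hold FPKM per locus as the authors deposited it, per the file headers, with TAIR10 coordinates. Per the submitters' processing notes, Subread was used, with no version given. FPKM times span (end minus start), divided by the smallest step, gave whole reads for 100% of values within 0.01. These reads were used throughout, and they summed to the library totals given in the report. No replicate exists, so the fold and interval rules took the place of a test.

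Read shares were compared by ratio with Clopper-Pearson 95% intervals, and log2 ratios used FPKM + 1 less the median of 0.0624 over loci that reached FPKM 1 in each library. Amplified reads are not independent molecules, so intervals and the floor of 3 reads cover counting error only. Sequences, anticodons and copies came from RefSeq TAIR10.1, which holds all 631 loci, 541 of them with equal coordinates. The 83 spans under 60 bases cover only a part of their gene, and 8 loci are pseudogenes.

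The naming rule took the 15 loci with most reads in Ler-0, the 10 with most in Col-0, the 5 highest and 5 lowest ratios, the leading locus per amino acid, and set pathway genes. Other named loci were chosen after their values were seen. The members, lists and rules were chosen with earlier results of these data known. The analysis used Python 3.11.15, NumPy 2.4.6, pandas 2.3.3, SciPy 1.17.1, Biopython 1.88 and Matplotlib 3.10.9, and was tested on simulated data. Alternatives covered pseudocounts, filters, centring, scaling, overlap and shared sequence.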

Additional observations from a re-analysis of the deposited data

How the results depend on the processing

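Of 61 values recomputed under alternatives, 33 stayed close to the reported value, 28 moved and 0 reversed. The count higher in Ler-0, 59, was 121 with a pseudocount of 0.1, 26 with 5, 25 of 79 with loci of the same sequence summed, 119 at 2-fold and 28 without Glu (TTC), initiator Met and Gly (TCC). The count higher in Col-0, 2, was 9 with a pseudocount of 0.1, 1 without overlapping loci and 9 at 2-fold. The median log2 ratio, 1.42, was 3.83 with a pseudocount of 0.1, 0.46 with 5, 3.57 with a filter of FPKM 5, 0.34 with no filter, 0.96 with sequences summed and 1.19 without the 3 families. The ratio of the tRNA share, 24.1, was 34.8 without overlapping loci, 29.0 without the leading locus of each library, 13.2 without the 10 leading loci of each, 1.72 without the 3 families and 28.4 without loci identical to an organelle sequence. The last 2 kinds of exclusion were chosen after seeing the data. The share held by the 10 leading loci was 56.8% in Col-0 and 84.3% in Ler-0 without overlapping loci, 60.4% and 82.7% without the leading locus, and 74.99% and 94.6% with sequences summed. At least 10 reads lay at 22 loci for Col-0 and 124 for Ler-0. Without the leading Ler-0 locus of each amino acid, 1 group had an interval below 1. No paired analysis was possible because there is a single library of each ecotype. Depth limits the low loci: most have few or no reads, the choice of pseudocount sets their ratios, and differences at loci near 3 reads were not detectable.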
